A study of Mus musculus with 103 samples.

Results

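Kidney total RNA was on 2 of the 16 tissue arrays in a mouse series of 103 arrays, and was compared with the 14 arrays of the other 7 tissues. The 2 arrays were found by their titles. One was labelled from 1 ug of RNA with the Affymetrix one-cycle kit, which gives biotinylated cRNA. The other was labelled from 500 pg with a protocol of Biogen Idec that gives biotinylated cDNA and that the labels name BIIB. Brain, embryo, heart, liver, lung, ovary and spleen RNA each had the same pair of arrays. All 8 RNAs were from 1 commercial panel of mouse tissue total RNA, and no label gave strain, age, sex, number of animals or treatment. The series as a whole tested that protocol on small amounts of RNA, and the tissue arrays let a tissue's profile be read by both protocols.

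The kidney filters plasma in its glomeruli and then recovers most of the filtrate along the tubule. Proximal tubule cells take back glucose, amino acids, phosphate and protein and secrete organic anions and cations, the thick ascending loop of Henle and the distal convoluted tubule take back salt, and the collecting duct adjusts water, acid and potassium under hormonal control. Proximal tubule makes up most of the renal cortex.

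Expression is given as the MAS5 signal, a scaled brightness per probe set, and each gene by its brightest probe set. Differences are kidney minus the other tissues on the scale log2(signal + pseudocount), with SE from limma, and the pseudocount, 5% of the arrays' common trimmed mean, understates the change of dim genes. A gene was called with an adjusted p under 0.05 and at least a 2-fold difference. Genes below a minimum mean signal of 500 over the tissue arrays were not tested. A gene dim elsewhere was therefore tested only if bright in kidney, which favours higher calls in lists of kidney genes. Lists were also chosen with earlier results of these data known. List counts above the share of all genes may therefore be partly built in. Because the 2 kidney arrays carry 1 RNA, n is 2 arrays of kidney against 14, and the p-values measure the spread between protocols within tissues and not the spread between animals. In RNA of a whole organ, fewer cells of a type and less RNA per cell cannot be told apart.

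Labels went against markers for 2 of the other tissues. The arrays labelled brain had the liver secretory genes Alb at 389047 and 1383219 and Apoa1 at 434406 and 745211, with the neuronal gene Snap25 at 143 and 70.5. The arrays labelled liver had Snap25 at 59507 and 168377, the myelin gene Mbp at 121938 and 294776 and Alb at 65.2 and 379. They are called arrays labelled brain and arrays labelled liver throughout, and an exchange of these labels would leave the mean of the other 7 as it is. Without these 4 arrays, an alternative chosen after seeing the data, limma called 1673 probe sets higher and 2298 lower in kidney, against 1614 and 1884 with them.

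The 3 kidney markers marked both kidney arrays and no other. Kap, the androgen-regulated proximal tubule protein, had a signal of 196316 by one-cycle and 284363 by BIIB, and the other 14 arrays lay at 6.2 to 326 (median 78.5). The difference was 10.11 ± 0.31 (adjusted p = 4.34e-09) and the largest among genes whose arrays did not overlap. Umod, the uromodulin secreted by the loop of Henle, stood at 99957 by one-cycle and 52688 by BIIB against 3.3 to 279.5 (median 44.7), a difference of 8.48 ± 0.33 (adjusted p = 1.55e-08). Slc34a1, the sodium-phosphate cotransporter of the proximal brush border, stood at 85801 by one-cycle and 34617 by BIIB against 7.1 to 938 (median 49), a difference of 7.84 ± 0.45 (adjusted p = 1.91e-07). No kidney array overlapped any other tissue for these 3 genes. In universal mouse RNA, a commercial pool, Kap was at 68.6 ± 101 by one-cycle and 97.1 ± 74.5 by BIIB (SD, n = 4 arrays each).

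The promoters of Kap and Slc34a1 are shown because these genes mark the tissue and both hold the letters of a TATA box. Each run is 250 bases before to 50 after the start in RefSeq (GRCm38.p6), 5′ to 3′, with the motif TATAAA, searched on the sense strand, in capitals. Kap lies at chr6:133853618-133853917 (minus strand) and Slc34a1 at chr13:55399398-55399697 (plus strand), and the motif begins 31 bases before the start of Kap and 16 bases after the start of Slc34a1.
Kap: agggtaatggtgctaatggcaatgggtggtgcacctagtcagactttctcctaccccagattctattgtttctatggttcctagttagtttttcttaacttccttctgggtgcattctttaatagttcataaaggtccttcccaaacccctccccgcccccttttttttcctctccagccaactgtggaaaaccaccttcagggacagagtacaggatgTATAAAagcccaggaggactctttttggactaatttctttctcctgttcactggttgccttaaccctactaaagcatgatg
Slc34a1: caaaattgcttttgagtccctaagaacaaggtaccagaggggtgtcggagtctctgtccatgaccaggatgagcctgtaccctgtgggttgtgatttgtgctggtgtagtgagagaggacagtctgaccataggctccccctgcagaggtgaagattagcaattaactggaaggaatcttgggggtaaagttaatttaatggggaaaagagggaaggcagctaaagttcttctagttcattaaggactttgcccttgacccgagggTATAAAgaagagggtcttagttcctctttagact

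**Figure D1:**
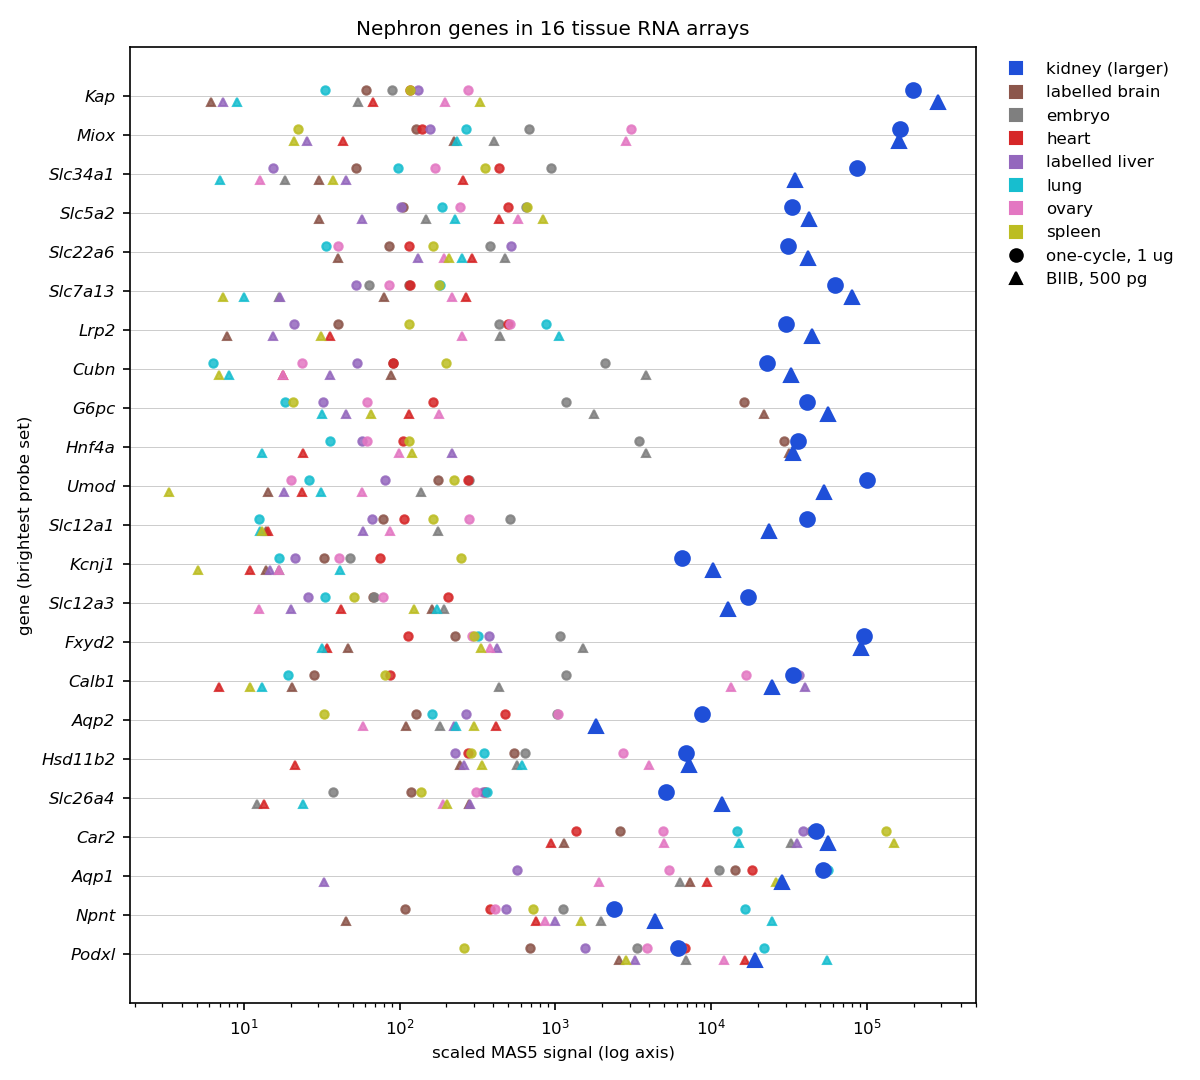
Scaled MAS5 signal (log axis) of 23 genes of the nephron in the 16 tissue arrays, circles for one-cycle and triangles for BIIB, with kidney in blue and larger. Both kidney arrays lie to the right of all other tissues for most genes, with Hnf4a next to the arrays labelled brain, but not for Calb1, Car2, Aqp1, Npnt and Podxl.

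Against the mean of the other 7 tissues, limma called 1055 of 9250 genes higher in kidney (11.4%) and 1296 lower (14%), with a median difference over all genes of -0.14. Over probe sets it called 1614 of 15180 higher (10.6%) and 1884 lower (12.4%). The size of these counts rests on what is taken as error: with differences among the other 7 tissues counted in the spread, 306 probe sets were higher (2.02%) and 17 lower (0.112%), or 212 genes (2.29%) and 11 (0.119%). On that wider spread 10 of 13 sodium-coupled transporters, 13 of 17 organic ion carriers and 17 of 42 metabolic genes stayed higher. Some other lists kept few: 1 of 13 kidney transcription factors, 2 of 24 peroxisome genes and 2 of 22 glutathione enzymes. The count was 0 of 6 podocyte, 0 of 9 gluconeogenesis and ketone body, 0 of 23 fatty acid oxidation and 0 of 17 citric acid cycle genes. Of the lymphoid, myeloid, stromal and mitotic genes 0 stayed lower by their brightest probe set. For the stromal gene Vim, the 2 other tested probe sets stayed lower (limma, adjusted p = 0.019 and 0.0356). Each kidney array also weighed on the counts: without the BIIB array 1038 probe sets were higher and 987 lower, and without the one-cycle array 1101 and 1121. All 1055 genes had a positive difference in each protocol, and 921 were at least 2-fold higher in both. Of the 1296 genes called lower, 926 were at least 2-fold lower in both. The calls rest on the mean of these same protocols with their disagreement as error, so such agreement is partly built into them. A stricter group of 217 genes (2.35%) was called higher than each of the 7 tissues, and 27 (0.292%) lower than each. Over probe sets the first count was 304, and 192 without the one-cycle kidney array. Both kidney arrays lay above all other 14 for 367 genes (3.97%) and below them for 108 (1.17%), or 525 (3.46%) and 159 (1.05%) probe sets.

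The 10 genes with the largest differences among those whose arrays did not overlap began with Kap. Next came Acsm2, a medium-chain acyl-CoA synthetase of mitochondria (9.87 ± 0.46), Ugt2b38, a glucuronosyltransferase (9.54 ± 0.33), and Akr1c21, a hydroxysteroid dehydrogenase (8.93 ± 0.32). Dnase1, the secreted nuclease, followed at 8.90 ± 0.33, with signals of 92681 by one-cycle and 113057 by BIIB against 7.9 to 293 (median 100.1). Miox, the oxygenase that opens myo-inositol in proximal tubule, was at 8.69 ± 0.27. Slc7a13, an amino acid transporter of the straight proximal tubule (8.39 ± 0.37), and Fxyd2, the gamma subunit of the sodium pump (7.84 ± 0.35), completed the group with Umod and Slc34a1. Ranked by the difference to the nearest tissue instead, Slc13a1, the renal sodium-sulfate cotransporter, and Slc22a22, an organic anion carrier, replaced Miox and Fxyd2. Slc13a1 was higher than every other tissue by at least 7.21 and Slc22a22 by at least 6.60.

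Sodium-coupled transporters of the proximal tubule were higher for 12 of 13 tested genes, and 1 was lower, against 11.4% and 14% of all genes. Their median difference was 4.95, and 9 were higher than each other tissue, beside 2.35% of all genes. The list holds the marker Slc34a1. Slc5a2, the glucose transporter SGLT2 of the early proximal tubule, had signals of 32873 by one-cycle and 42303 by BIIB against 30.3 to 827 (median 237), a difference of 6.56 ± 0.36 (adjusted p = 1.44e-07). Slc5a1, the SGLT1 of the late proximal tubule and gut, was at 3244 by one-cycle and 2791 by BIIB against 11.6 to 1711 (median 287), a smaller difference of 3.00 ± 0.43 (adjusted p = 0.000296). The other 14 arrays did not reach the kidney for either gene. Slc4a4, the sodium-bicarbonate cotransporter that returns bicarbonate to blood, differed by 5.70 ± 0.54, Slc6a20b, an imino acid carrier, by 6.18 ± 0.29, Slc5a8, a monocarboxylate carrier, by 5.62 ± 0.36 and Slc13a3, a dicarboxylate carrier, by 4.95 ± 0.48. Slc6a13, a GABA and betaine carrier, was higher than the mean of the 7 at 2.18 ± 0.33 but lower than the arrays labelled brain, at -2.34 ± 0.43 (adjusted p = 0.002). Slc20a1, a phosphate transporter of most cells, was the 1 gene lower, at -1.02 ± 0.22, and that call was lost with quantile normalization, with the other 5 tissues alone and without either kidney array.

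Exchangers for amino acids and sugars of the proximal tubule were higher for 7 of 8, with a median of 4.63, beside 11.4% of all genes. Slc3a1 and Slc7a9, the 2 chains of the cystine transporter, stood at 35923 by one-cycle and 52162 by BIIB and at 31970.0 by one-cycle and 12768 by BIIB. Their differences were 6.05 ± 0.51 and 5.94 ± 0.33, and both were higher than each other tissue. Slc7a7, the light chain of the basolateral exchanger for basic amino acids, differed by 4.23 ± 0.38, and Slc2a5, the fructose transporter, by 3.65 ± 0.35. Slc2a2, the glucose transporter GLUT2, was at 18568 by one-cycle and 15648 by BIIB in kidney and at 31300.3 and 25632 in the arrays labelled brain, and the 2 tissues did not pass the test against each other (-0.73 ± 0.28, adjusted p = 0.0919). Slc3a2, the heavy chain shared by many exchangers, was not called, at 0.82 ± 0.28.

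Carriers of organic anions and cations, which secrete drugs, urate and metabolites, were higher for all 17 tested, beside 11.4% of all genes. Their median was 6.03. Slc22a6, the organic anion transporter OAT1, stood at 31148 by one-cycle and 41622 by BIIB against 33.8 to 521 (median 178), a difference of 6.90 ± 0.39 (adjusted p = 1.91e-07). Slc22a8, OAT3, stood at 19167 by one-cycle and 20181 by BIIB against 18.6 to 2722 (median 173), a difference of 5.80 ± 0.30. Slc22a12, the urate exchanger URAT1, differed by 6.65 ± 0.41, and Slc22a2, the cation transporter OCT2, by 7.04 ± 0.44. Both arrays of kidney lay above all others for 15 of these genes, beside 3.97% of all genes. The phosphate and urate carriers Slc17a1 and Slc17a3 differed by 7.76 ± 0.36 and 7.49 ± 0.40, and their next highest tissue was the arrays labelled brain. Against those arrays Slco1a1, an organic anion uptake carrier, was at 0.92 ± 0.31, Slc47a1, the proton-coupled cation exporter, at 1.57 ± 0.58 and Abcc2, an export pump, at -0.94 ± 0.48, none of them called. Abcg2, an export pump of the brush border, was higher than each tissue, by at least 1.69.

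Genes of protein uptake were higher for 9 of 11, with a median of 5.27, beside 11.4% of all genes. Lrp2, the megalin receptor, stood at 30047 by one-cycle and 44328 by BIIB against 7.8 to 1050.1 (median 184), a difference of 6.81 ± 0.38 (adjusted p = 1.44e-07). Cubn, its partner cubilin, stood at 22890.2 by one-cycle and 32659 by BIIB against 6.4 to 3828 (median 44.3), a difference of 6.74 ± 0.33 (adjusted p = 6.63e-08). The highest other array was lung for Lrp2 and embryo for Cubn. Amn, which carries cubilin to the surface, differed by 5.27 ± 0.29, Cltrn, the collectrin that stabilises amino acid transporters, by 6.89 ± 0.30, Pdzk1, a brush border scaffold, by 6.66 ± 0.32, and Folr1, the folate receptor, by 5.49 ± 0.39. Rbp4, the plasma retinol carrier that proximal cells take up and liver makes, was lower, at 789.9 by one-cycle and 28.9 by BIIB against 190.2 to 379471 (median 3469).

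Brush border peptidases and ectoenzymes were higher for 7 of 8, with a median of 2.90, beside 11.4% of all genes. The meprin chains Mep1a (70011 by one-cycle and 41876 by BIIB; 7.09 ± 0.34) and Mep1b (21654 by one-cycle and 33223 by BIIB; 6.80 ± 0.31) and the trehalase Treh (4.62 ± 0.33) were higher than each other tissue. Dpep1, Mme and Enpep, a dipeptidase, neprilysin and aminopeptidase A, were higher than the mean of the 7 by 3.42, 2.07 and 2.38, but differed from lung by 0.35, 0.15 and 0.13, with no call. Anpep, aminopeptidase N, was not called, at 0.62 ± 0.41.

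Among the metabolic genes of the proximal tubule, a list that holds the marker Kap, 39 of 42 tested were higher and 1 was lower. Their median was 4.96, and among all genes 11.4% were higher and 14% lower. Higher than each other tissue were 21, beside 2.35% of all genes. Miox had signals of 161435 by one-cycle and 160782 by BIIB against 20.9 to 3039 (median 190.1). Acy3, which deacetylates mercapturic acids, stood at 84311 by one-cycle and 78876 by BIIB, a difference of 6.19 ± 0.24, and Nat8, which makes them, at 36085 by one-cycle and 55489 by BIIB, a difference of 7.06 ± 0.61. Cyp4b1, a monooxygenase that lung also makes, stood at 205572 by one-cycle and 120961 by BIIB, above the 61284 and 22136 of lung. Gatm, the first enzyme of creatine synthesis, differed by 3.67 ± 0.30, Dao, the D-amino acid oxidase, by 4.43 ± 0.24, and Cndp2, a cytosolic dipeptidase, by 3.44 ± 0.24, with the other 14 arrays at 7019 to 14888 (median 11160.0). Gsta4, a glutathione transferase, was the 1 gene lower (-1.88 ± 0.28). Bhmt, the betaine-homocysteine methyltransferase, at -0.34 ± 0.66, and Dpys, a pyrimidine enzyme, at -0.85 ± 0.43, were not called.

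**Figure D2:**
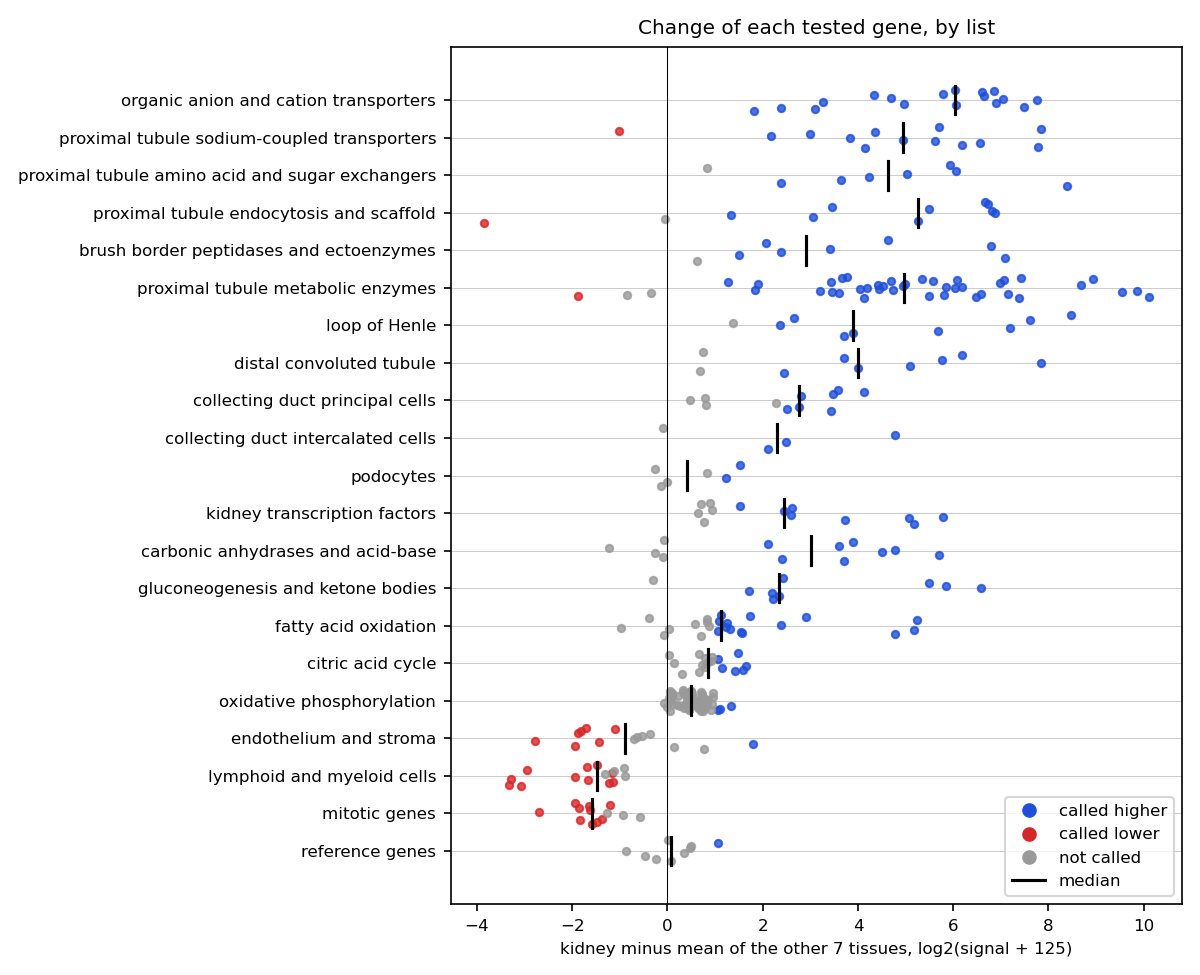
Difference of kidney from the mean of the other 7 tissues, log2(signal + pseudocount), for each tested gene of 21 lists, with called genes in blue or red, other genes in grey and a black bar at the list median. Medians of the tubule transporter lists lie between 4.63 and 6.03, that of the podocyte list at 0.41 and that of the mitotic list at -1.57.

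Of 9 loop of Henle genes tested, the marker Umod among them, 8 were higher, beside 11.4% of all genes, with a median of 3.90. Higher than each other tissue were 6, beside 2.35% of all genes. Another 4 of the 13 on the array were below the minimum signal. Slc12a1, the furosemide-sensitive cotransporter NKCC2, stood at 40905 by one-cycle and 23557 by BIIB against 12.5 to 513 (median 72.4), a difference of 7.19 ± 0.26 (adjusted p = 1.11e-08). Kcnj1, the potassium channel ROMK, stood at 6523 by one-cycle and 10300.2 by BIIB against 5.1 to 249 (median 19.1), a difference of 5.69 ± 0.33 (adjusted p = 2.16e-07). Egf, made by the loop and distal tubule, stood at 65999 by one-cycle and 61731 by BIIB against 33.7 to 602 (median 185), a difference of 7.60 ± 0.31. Kidney did not overlap any other tissue for these 3 genes. Sostdc1, an antagonist of bone morphogenetic proteins, differed by 3.90 ± 0.35 and Cldn10, a claudin of the loop, by 3.71 ± 0.35. Irx1, a homeobox gene, was not called, at 1.37 ± 0.50 (adjusted p = 0.0597), and was called after quantile normalization.

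Distal convoluted tubule genes were higher for 7 of 9 tested, with a median of 4.01, beside 11.4% of all genes. Another 2 on the array were below the minimum signal. Slc12a3, the thiazide-sensitive cotransporter NCC, stood at 17167 by one-cycle and 12719 by BIIB against 12.5 to 204 (median 68.2), a difference of 6.18 ± 0.35 (adjusted p = 1.74e-07). Wnk4, a kinase that regulates it, differed by 2.45 ± 0.28, and Klk1, the kallikrein of the connecting tubule, by 5.76 ± 0.40. Each of the 3 was higher than each other tissue. The calcium-binding genes Calb1 and Pvalb, which neurons also express, were higher than the mean of the 7, at 5.10 ± 0.27 and 3.70 ± 0.28, but stood at 33254 and 24595 and at 7887 and 7463 against 36587 and 39881 and 31859 and 19101 in the arrays labelled liver, which carried neuronal genes. S100g, calbindin-D9k, was higher than each tissue, by at least 1.77. Kcnj10 and Trpm6, a potassium and a magnesium channel, were not called, at 0.74 ± 0.52 and 0.68 ± 0.48.

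Collecting duct genes had smaller median differences. Of 11 principal cell genes tested 7 were higher, with a median of 2.75, beside 11.4% of all genes. Higher than each other tissue were 2, beside 2.35% of all genes. Another 3 on the array were below the minimum signal. Aqp2, the vasopressin-regulated water channel, stood at 8717 by one-cycle and 1818 by BIIB against 33 to 1033 (median 227), a difference of 3.44 ± 0.62 (adjusted p = 0.00145). Tfcp2l1, a transcription factor of the collecting duct, stood at 12565 by one-cycle and 11242 by BIIB against 99.7 to 3134 (median 530.2), a difference of 4.14 ± 0.30 (adjusted p = 1.35e-06). Hsd11b2, which shields the mineralocorticoid receptor from glucocorticoid, differed by 3.58 ± 0.35. The sodium channel ENaC was split: its gamma subunit Scnn1g was higher (2.50 ± 0.30), while Scnn1b (0.81 ± 0.30) and Scnn1a (0.79 ± 0.44) were not called, and all 3 were brighter in lung. Of 11 intercalated cell genes on the array, 7 were below the minimum signal. Among the 4 tested, Slc26a4, the chloride-bicarbonate exchanger pendrin, stood at 5143 by one-cycle and 11674 by BIIB against 12.2 to 366 (median 195), a difference of 4.79 ± 0.48 (adjusted p = 1.91e-05). Rhbg, an ammonium transporter, at 2.48 ± 0.47, and Car2, carbonic anhydrase II, at 2.12 ± 0.27, were higher too, and Slc4a1, shared with red cells, was at -0.092 ± 0.35 with no call.

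Podocyte genes, which mark the glomerular filter, differed little. Nphs1, Wt1 and Kirrel were below the minimum signal. Of the 6 tested 2 were higher, with a median of 0.41, beside 11.4% of all genes. Against the arrays labelled brain 3 of the 6 were higher and 0 lower, with a median of 1.89. Among all genes 13.7% were higher and 8.67% lower than these arrays. Npnt, the nephronectin of basement membranes, stood at 2385 by one-cycle and 4334 by BIIB and Podxl, the podocalyxin of podocytes and endothelium, at 6088 by one-cycle and 19001 by BIIB. Lung was brighter for both, at 16405 and 24619.6 and at 21926 and 55116. With the mean of each gene's probe sets neither Npnt (0.945) nor Podxl (0.937) was called. Without the arrays labelled brain and labelled liver, 0 podocyte genes were higher and 1 was lower, and without the BIIB or the one-cycle kidney array Podxl was at 1.19 ± 0.48 or 1.26 ± 0.48 with no call. Ptpro, a receptor phosphatase of podocyte foot processes, was not called, at 0.83 ± 0.32.

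Hormone and receptor genes were higher for all 7 tested, with a median of 5.03, beside 11.4% of all genes. Kl, the klotho coreceptor of FGF23, stood at 27220.1 by one-cycle and 11112 by BIIB against 18.8 to 1129 (median 156), a difference of 5.78 ± 0.36 (adjusted p = 4.39e-07). Vdr, the vitamin D receptor, differed by 5.22 ± 0.48, and Cyp24a1, which degrades vitamin D, by 5.03 ± 0.50. With Egf these were higher than each other tissue. Kng1, the kininogen, and Agt, the angiotensinogen, were higher than the mean of the 7 (4.07 and 1.44) but lower than the arrays labelled brain (-3.45 ± 0.58 and -3.24 ± 0.38), and Ace, the converting enzyme, was 1.16 above the mean while lung was brighter, at 18158 and 8150.2. Ace was not called without the arrays labelled brain and labelled liver (0.72, adjusted p = 0.113), which left 6 of the 7 higher, nor without either kidney array (1.15 and 1.18).

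Among 7 water channels tested, 3 were higher and 3 lower, beside 11.4% higher and 14% lower among all genes. Aqp1, of proximal tubule and thin limb, stood at 51790.3 by one-cycle and 28339 by BIIB, close to 56518 and 27605 in lung, with a difference from the mean of 2.28 ± 0.27. Aqp4 was higher at 2.81 ± 0.31. Aqp5 of lung and salivary gland (-1.90 ± 0.43), Aqp8 (-1.52 ± 0.26) and Aqp9 (-1.62 ± 0.48) were lower. Aqp9 was not called without the arrays labelled brain and labelled liver (-0.945, adjusted p = 0.149), without the one-cycle kidney array (-0.92) or with a pseudocount of 25 (adjusted p = 0.159). Aqp3, of the basolateral collecting duct, had unlike signals in the 2 kidney arrays, 7696 by one-cycle and 216 by BIIB, and was not called (2.28 ± 0.88, adjusted p = 0.0758). Without the BIIB kidney array it was called, at 4.22 ± 1.00, and also with a pseudocount of 500, at 1.68. A second tested Aqp3 probe set, at 4997.3 by one-cycle and 446.3 by BIIB, was called higher (2.77 ± 0.50, adjusted p = 0.00148). Of 9 cadherins and claudins, 5 were higher, among them the kidney cadherin Cdh16 (6.74 ± 0.45), the leaky proximal claudin Cldn2 (5.75 ± 0.71) and the collecting duct claudin Cldn8 (3.35 ± 0.53), and 1 was lower, the neural cadherin Cdh2 (-1.77 ± 0.32).

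Transcription factors of the kidney had 8 of 13 tested higher, beside 11.4% of all genes, with a median of 2.44. Another 15 on the array were below the minimum signal, Pax8, Lhx1 and Hnf4g among them. Hnf4a, which drives proximal tubule and hepatocyte genes, stood at 36195 by one-cycle and 33452 by BIIB in kidney and 29284 and 31729.8 in the arrays labelled brain. It differed from the mean of the 7 by 5.79 ± 0.27 (adjusted p = 4.09e-08) and from the arrays labelled brain by 0.19 ± 0.35, without a call. The same held for Nr1h4, the bile acid receptor (5.17 ± 0.34 and 0.86 ± 0.45). Of 6 Hox genes tested 4 were higher and 2 not called, and with differences among the other 7 tissues in the spread 1 stayed higher. Hoxa9, a posterior homeobox gene, stood at 7796 by one-cycle and 17689 by BIIB, a difference of 5.07 ± 0.54, and Hoxd8 and Hoxd9 differed by 3.72 ± 0.44 and 2.44 ± 0.26. Hoxa9 was the 1 factor higher than each other tissue, and ovary was nearest for all 3.

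Androgen-dependent kidney genes were higher for 11 of 12, with a median of 6.26, beside 11.4% of all genes. Of these, 9 were higher than each other tissue, beside 2.35% of all genes. This list shares Kap, Slc7a13, Slc22a6 and others with the lists above. Odc1, the first enzyme of polyamine synthesis, stood at 38503 by one-cycle and 48459 by BIIB against 3166 to 34253 (median 5975), a difference of 2.41 ± 0.25 (adjusted p = 2.71e-05), and spleen was nearest. Nudt19, a peroxisomal hydrolase, differed by 3.14 ± 0.28, Cyp2j13 by 7.15 ± 0.34 and Cyp4a12a, a fatty acid hydroxylase, by 5.36 ± 0.43. Gusb, the beta-glucuronidase, was not called (0.48 ± 0.24). Of 8 genes that are higher in female kidney, 6 were higher here and 1, Gsta4, was lower. Against the arrays labelled brain 3 were higher and 4 lower, beside 13.7% higher and 8.67% lower among all genes. Those higher than the mean of the 7 included Hao2, a hydroxyacid oxidase (5.80 ± 0.36), and Slc22a7, the anion transporter OAT2 (6.05 ± 0.60). The labels gave no sex for any tissue. Xist, the RNA that coats an inactive X, stood at 529 by one-cycle and 199 by BIIB against 275 to 27618 (median 2318) and was lower (-2.51 ± 0.42). Of its 2 other tested probe sets, 1 was lower (-3.83 ± 0.34), with all 14 other arrays above kidney. The other was not called by limma (-0.66 ± 0.42, adjusted p = 0.271). Eif2s3y, on the Y chromosome, stood at 1345 by one-cycle and 2700.3 by BIIB against 20.6 to 6190.1 (median 707), without a call (1.45 ± 0.62).

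Genes of gluconeogenesis and ketone bodies were higher for 8 of 9, with a median of 2.35, beside 11.4% of all genes. G6pc, the glucose-6-phosphatase, stood at 41128 by one-cycle and 55799 by BIIB against 16241 and 21643 in the arrays labelled brain and at most 1779, in embryo, elsewhere, and was higher than each tissue. Fbp1 (125563 by one-cycle and 115852 by BIIB) and Pck1 (44697 by one-cycle and 128553 by BIIB), fructose bisphosphatase and PEP carboxykinase, differed from the mean by 5.85 ± 0.24 and 5.49 ± 0.32 and from the arrays labelled brain by -0.23 ± 0.32 and -0.58 ± 0.43, without a call. Oxct1, the enzyme that uses ketone bodies and that hepatocytes lack, was 4.81 ± 0.36 above the arrays labelled brain, at 57048 by one-cycle and 142142 by BIIB, and close to heart. Pck2, the mitochondrial form, was not called, at -0.31 ± 0.41.

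Genes of fatty acid oxidation and peroxisomes were higher in part. Of 23 fatty acid oxidation genes 14 were higher, with a median of 1.13, among them the peroxisomal Ehhadh (4.79 ± 0.39), Crot (2.92 ± 0.27) and the medium-chain dehydrogenase Acadm (2.38 ± 0.23). Of 24 peroxisome genes 15 were higher, with a median of 1.27; enzymes such as Amacr (3.96 ± 0.26) and Phyh (2.30 ± 0.23) were among them, and of the 10 Pex genes on the list Pex7 (1.14 ± 0.30) was called. Of 17 citric acid cycle genes 6 were higher, with a median of 0.85. Of 65 oxidative phosphorylation genes 3 were higher, against 11.4% of all genes, and their median was 0.49 against -0.14 for all genes. Heart was the brightest other tissue for most genes of the cycle, such as Sdha, Idh3g and Idh2.

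Some acid-base, glutathione and pump genes were higher in kidney, beside 11.4% higher and 14% lower among all genes. Of 12 carbonic anhydrases and bicarbonate transporters 8 were higher, with Car12 at 9999 by one-cycle and 13003 by BIIB, a difference of 4.51 ± 0.31, and Car15 at 3.90 ± 0.36, both higher than each other tissue. Of 22 glutathione enzymes 12 were higher and 2 lower. Against the arrays labelled brain 4 of the 22 were higher and 7 lower, with a median of -0.55. Among all genes 13.7% were higher and 8.67% lower than these arrays. Gpx3, the plasma glutathione peroxidase that proximal tubule secretes, stood at 255661 by one-cycle and 166917 by BIIB against 258 to 132256 (median 9275), a difference of 4.64 ± 0.37 (adjusted p = 3.43e-06), and was higher than each other tissue. Of 16 sodium pump and vacuolar ATPase genes 6 were higher, with Atp1b1, the beta subunit of the sodium pump, at 2.96 ± 0.26 and the proton pump subunit Atp6v1a at 1.88 ± 0.36.

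**Figure D3:**
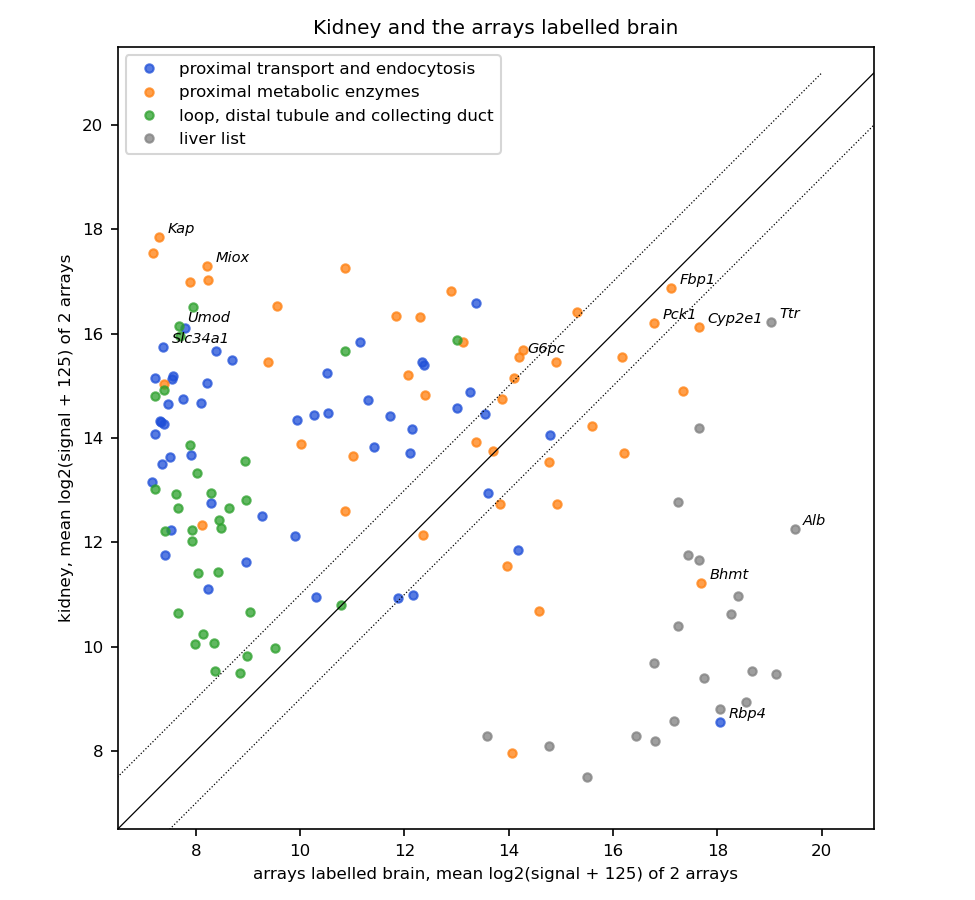
Mean log2(signal + pseudocount) of the 2 kidney arrays against that of the 2 arrays labelled brain, 1 point per tested gene of 4 groups, with the line of equality and dotted lines at 2-fold. Most loop, distal and collecting duct genes lie in the left part. Genes of the metabolic list, Kap among them, spread from the left edge to beyond the lower dotted line. All 21 liver genes lie below that line.

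The arrays labelled brain, which carried liver genes, were the tissue against which the fewest of the 1055 genes kept a call. Of the 1055 genes higher than the mean of the 7, 545 were also called higher than these arrays, 452 were not called against them and 58 were lower; for spleen the first count was 913. These arrays were the nearest tissue for 394 of the 1055, and lung, the next, for 155. A direct comparison over all genes called 1266 genes higher in kidney (13.7%) and 802 lower (8.67%). By that count ovary had the fewest, with 926 higher, followed by lung with 1152 and embryo with 1190. Across tested probe sets, which are not independent replicates, log2(signal + pseudocount) in kidney correlated with that in ovary at r = 0.695 by one-cycle and 0.731 by BIIB, and with the arrays labelled brain at 0.674 and 0.703. Over probe sets 1935 were higher (12.7%) and 1171 lower (7.71%), with 1022 higher without the BIIB kidney array or 1216 without the one-cycle array. Metabolic genes of the proximal tubule, Kap among them, had 21 of 42 higher and 8 lower. Their median was 1.22 in place of 4.96. Fatty acid oxidation had 0 of 23 higher and 4 lower. By contrast 11 of 13 sodium-coupled transporters and 9 of 9 loop of Henle genes were higher, with medians of 4.74 and 5.31. All of these differences share the kidney arrays, and no test compared the lists with each other.

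Among enzymes lower in kidney than in the arrays labelled brain, Cyp2e1 stood at 98454 by one-cycle and 52487 by BIIB against 208488 and 202729, a difference of -1.51 ± 0.39. Hpd, which degrades tyrosine, was at -2.45 ± 0.44 and Cyp2d26 at -2.51 ± 0.35. The 5 genes with the largest differences downward were Apoa1 (-9.63 ± 0.49), Arg1, the arginase of the urea cycle (-9.63 ± 0.50), Ahsg (-9.61 ± 0.43), Rbp4 (-9.50 ± 0.64) and Pon1, a plasma esterase (-9.30 ± 0.37). Upward they were Kap, Acsm2, Ugt2b38, Miox and Akr1c21, at 10.56, 10.37, 9.11, 9.09 and 8.79. All 21 genes of the liver list were lower than these arrays. Some were still above the mean of the 7: Ttr, the thyroid hormone and retinol carrier protein, stood at 78375 by one-cycle and 73793 by BIIB in kidney against 90.8 to 761408 (median 3260.1), a difference of 3.23 ± 0.33 (adjusted p = 2e-05), and Apob at 4809 by one-cycle and 9898 by BIIB (2.40 ± 0.28). Their part in the kidney differences was not tested.

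Heart, lung, spleen, brain and ovary markers were lower or not called in kidney. Of 14 heart genes 13 were lower and 0 higher, of 11 lung genes 8 and 0, of 12 spleen genes 6 and 0, of 14 brain genes 7 and 0 and of 6 ovary genes 0 and 0, against 14% lower among all genes. Each list's own tissue is part of the mean of the other 7. Of 11 embryo genes 5 were lower and 0 higher, of 6 erythroid genes 1 and 0, of 21 liver genes 7 and 5, and of 6 complement and defence genes 1 and 2. The summed signal of the heart list was 3314 and 3189 in the kidney arrays, with the other 14 at 1696 to 4485904. For the lung list it was 2168 and 2053, with the others at 1071 to 1617442. Adrenal genes, from the gland that sits on the kidney, had 0 of 5 higher and 1 lower, and of 6 adipose genes 2 were lower and 1, the lipoprotein lipase Lpl, was higher (1.40 ± 0.25), without a call once the arrays labelled brain and labelled liver were left out.

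Most lymphoid and myeloid genes tested were lower in kidney. Of 15 such genes 11 were lower and 0 higher, against 14% lower among all genes, with a median of -1.48. Lyz2, the lysozyme of macrophages, stood at 2271 by one-cycle and 2888 by BIIB against 1712 to 242116 (median 26880.2), a difference of -3.33 ± 0.23 (adjusted p = 1.15e-06). Cd79b, of the B cell receptor, stood at 57.6 by one-cycle and 88.7 by BIIB against 101 to 41448 (median 1318), a difference of -3.08 ± 0.28 (adjusted p = 9.73e-06), with both kidney arrays below all others. The neutrophil genes S100a8 and S100a9 differed by -3.29 ± 0.27 and -2.94 ± 0.31, and Lcn2, a defence protein that injured tubules induce, by -5.15 ± 0.43. Of 14 endothelial and stromal genes 7 were lower, 6 were not called and 1 was higher. Against the arrays labelled brain 3 of the 14 were higher and 2 lower, with a median of 0.41. Among all genes 13.7% were higher and 8.67% lower than these arrays. Vim, the intermediate filament of mesenchymal cells, stood at 4569 by one-cycle and 10042 by BIIB against 9367 to 142116 (median 59411), a difference of -2.77 ± 0.25 (adjusted p = 8.14e-06), and the collagens Col3a1 (-1.95 ± 0.28) and Col1a2 (-1.70 ± 0.21) were lower as well. Emcn, the endomucin of capillaries, was the gene that was higher, at 1.80 ± 0.25.

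Mitotic genes were lower for 10 of 13 and higher for 0, against 14% lower among all genes, with a median of -1.57. Against the arrays labelled brain 0 of the 13 were lower, beside 8.67% of all genes, with a median of -0.16. Both kidney arrays lay below all other 14 for 0 of them. Mki67, the proliferation antigen, stood at 386 by one-cycle and 878 by BIIB against 225 to 137004 (median 4626), a difference of -2.71 ± 0.43 (adjusted p = 0.000635). Top2a (-1.94 ± 0.27) and Cdk1 (-1.83 ± 0.29) were lower too, and spleen was the brightest tissue for all 3. Of 11 immediate early genes 3 were lower, beside 14% of all genes. They were Egr1 (-2.07 ± 0.27), Fos (-1.90 ± 0.28) and Nr4a1 (-1.27 ± 0.36). Against the arrays labelled brain 1 of the 11 was lower, beside 8.67% of all genes, with a median of -0.18. Of 9 reference genes 1 was higher, beside 11.4% of all genes, and the list median was 0.074. It was Sdha, a mitochondrial enzyme, at 1.06 ± 0.22.

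**Figure D4:**
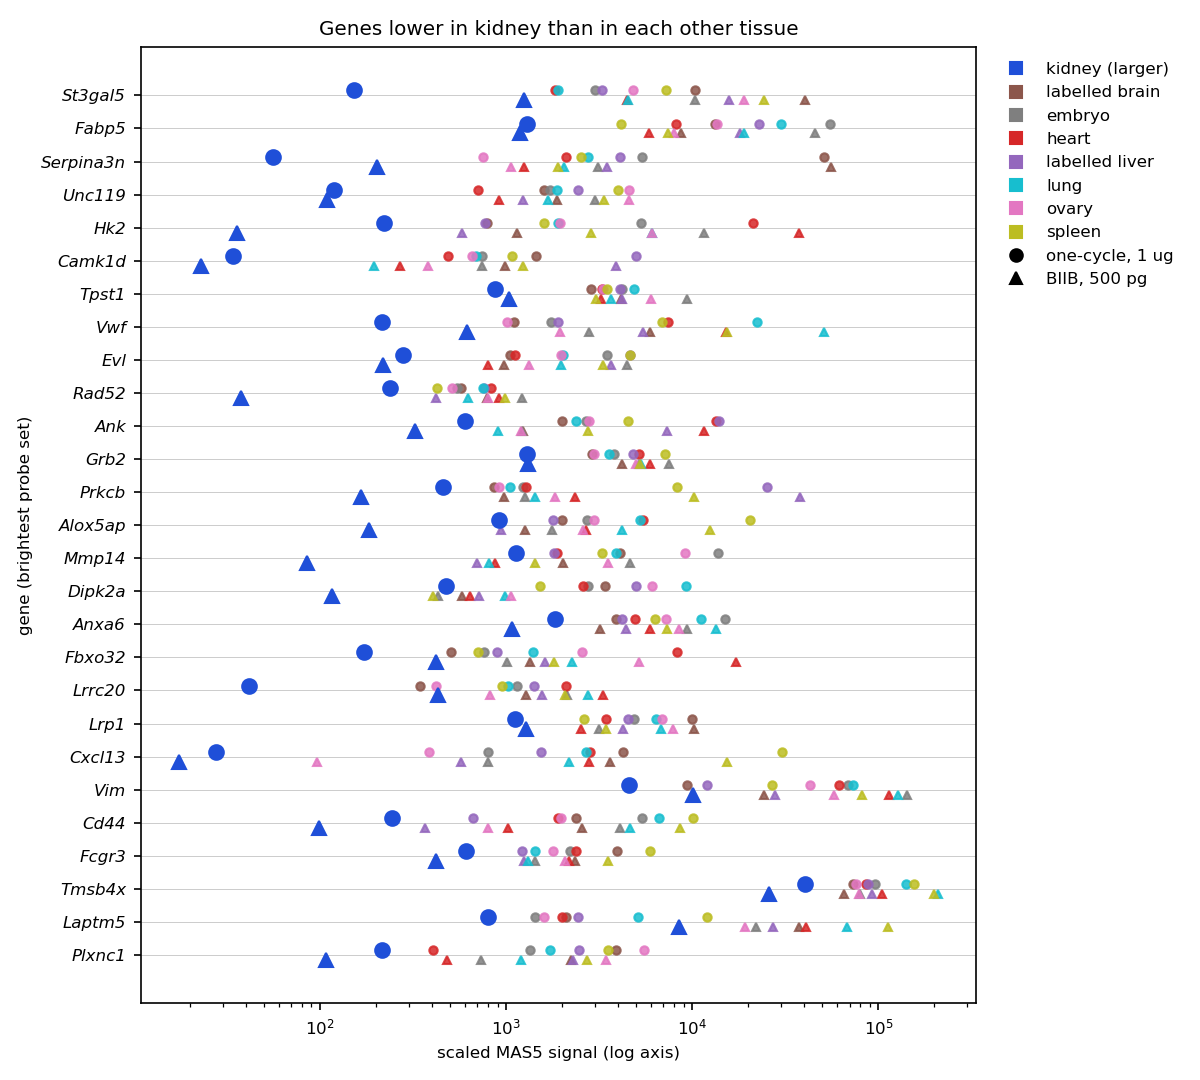
Scaled MAS5 signal (log axis) in the 16 tissue arrays of the 27 genes called lower in kidney than in each other tissue, circles for one-cycle, triangles for BIIB, kidney in blue and larger. Both kidney arrays lie left of all others for most genes, such as Fabp5, Unc119 and Grb2, but not for Laptm5, where the BIIB array overlaps the one-cycle arrays of other tissues.

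Enzymes, signalling adaptors and genes of immune and vascular cells were among the 27 genes lower than each other tissue. St3gal5, which makes the ganglioside GM3, stood at 152 by one-cycle and 1243 by BIIB against 1829.6 to 40279.9 (median 5987), a difference of -3.56 ± 0.26 (adjusted p = 1.61e-06). Fabp5, the epidermal fatty acid binding protein, stood at 1288 by one-cycle and 1182 by BIIB against 4163 to 54703 (median 13434), a difference of -3.38 ± 0.29 (adjusted p = 5.41e-06). Hk2, the insulin-regulated hexokinase of muscle and fat, stood at 220.3 by one-cycle and 35.7 by BIIB against 579.8 to 37503 (median 2405), a difference of -3.86 ± 0.43 (adjusted p = 4.93e-05). For these 3 genes the kidney arrays lay below all 14 others. Serpina3n, a protease inhibitor (-3.92 ± 0.31), Cxcl13, the B cell chemokine (-3.87 ± 0.30), Unc119, a lipid-binding chaperone (-3.21 ± 0.28), Vwf, the von Willebrand factor of endothelium (-3.41 ± 0.29), and Cd44, the hyaluronan receptor (-3.19 ± 0.26), belonged to the 27 and, with these 3, to the 10 genes with the largest differences downward among called genes whose kidney arrays lay below all 14 others. The other 2 of the 10 were Ppp1r3c, a glycogen-targeting subunit (-3.80 ± 0.41), and Pcolce2, a procollagen enhancer (-3.79 ± 0.35). With differences among the other 7 tissues in the spread, 11 genes in all stayed lower (0.119%), St3gal5, Fabp5 and Unc119 among them.

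**Figure D5:**
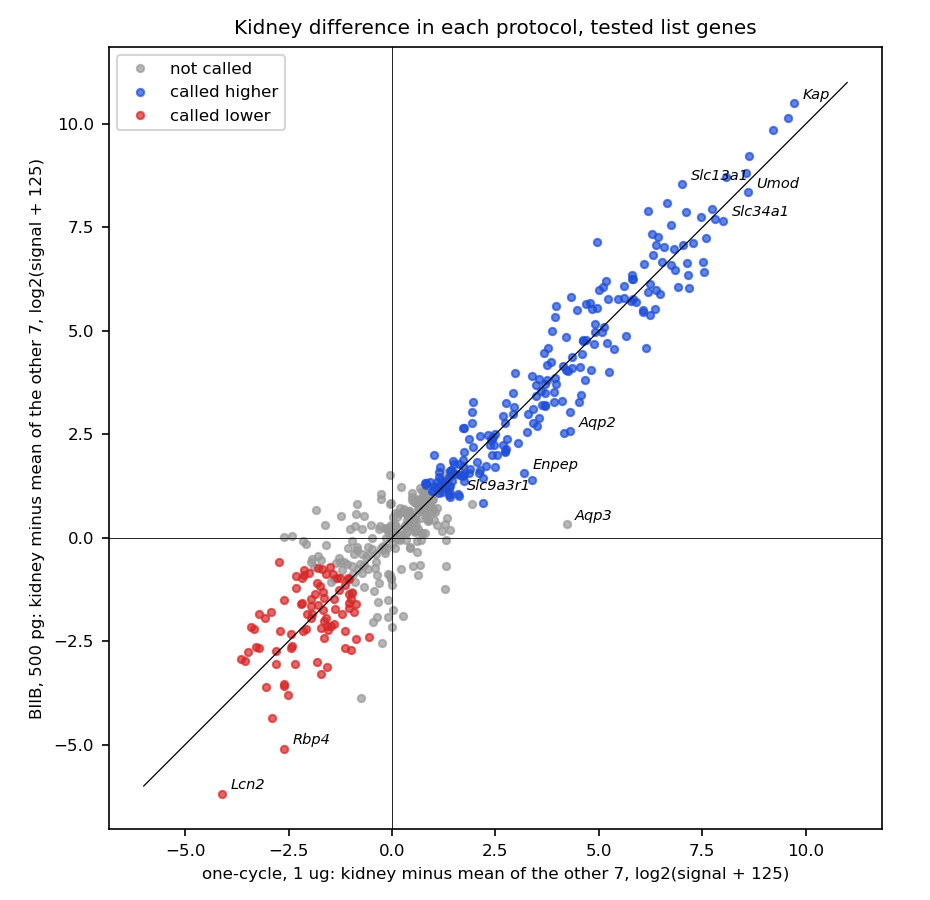
Difference of kidney from the mean of the other 7 tissues by one-cycle (x axis) and by BIIB (y axis), log2(signal + pseudocount), 1 point per tested list gene, with the line of equality. Kap, Umod and Slc34a1 lie near the line at the upper right, and Aqp3 lies far below it.

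The 3 markers and most called list genes differed in the same direction in both protocols. Kap was at 9.72 by one-cycle and 10.49 by BIIB, Umod at 8.60 by one-cycle and 8.35 by BIIB and Slc34a1 at 8.01 by one-cycle and 7.67 by BIIB. Of 209 list genes called higher, 201 were at least 2-fold higher in each protocol, and of 85 called lower, 63 were at least 2-fold lower in each. These genes were called from the same arrays, so this agreement is partly built in. Aqp3 (4.22 by one-cycle and 0.34 by BIIB) and Enpep (3.19 by one-cycle and 1.56 by BIIB) were higher by one-cycle than by BIIB, and Slc13a1 (7.01 by one-cycle and 8.54 by BIIB) the reverse. No probe set of 15180 passed limma's test of a kidney difference between protocols (0.00%), with 656 at an unadjusted p under 0.05 and a smallest adjusted p of 0.459; with a smaller pseudocount of 25, 3 passed. The test sets 1 tissue against 7 and does not show that the protocols act alike. Over all probe sets, which are no independent replicates, the 2 sets of differences correlated at r = 0.83.

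Of the 217 genes higher than each tissue, 178 had a RefSeq promoter of 300 bases, and these were searched for 3 motifs. The HNF1 motif, GTTAAT then any base then ATT on either strand, was in 4 of the 178 (2.25%), in 1.53% of 849 genes called higher, in 0.373% of 7506 genes tested and in 0.470% of all 27025 genes with such promoters, a gene with several promoters counting once. A core of the HNF4 motif, CAAAGTCCA, on either strand, was in 5 (2.81%), in 1.88% of the 849, in 0.706% of the 7506 and in 0.555% of all. TATAAA, on the sense strand, was in 23 (12.9%), in 7.42% of the 849, in 6.71% of the 7506 and in 9.77% of all. A match is a description of these letters and not a binding site. Cltrn, one of the 4 with the HNF1 motif, and Nat8, one of the 5 with the HNF4 motif, are shown with the motif in capitals, at chrX:164089937-164090236 (plus strand) and chr6:85832230-85832529 (minus strand) (GRCm38.p6, RefSeq). The HNF1 match begins 54 bases before the start of Cltrn shown and the HNF4 match 2 bases after the start of Nat8 shown. RefSeq has a second promoter for each of these genes, and none of the 3 motifs was in it.
Cltrn: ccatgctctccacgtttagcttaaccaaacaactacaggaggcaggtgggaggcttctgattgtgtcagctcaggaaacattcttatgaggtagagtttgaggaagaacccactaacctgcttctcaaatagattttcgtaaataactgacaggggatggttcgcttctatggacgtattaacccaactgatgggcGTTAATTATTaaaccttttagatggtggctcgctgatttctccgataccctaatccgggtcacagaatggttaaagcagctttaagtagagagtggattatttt
Nat8: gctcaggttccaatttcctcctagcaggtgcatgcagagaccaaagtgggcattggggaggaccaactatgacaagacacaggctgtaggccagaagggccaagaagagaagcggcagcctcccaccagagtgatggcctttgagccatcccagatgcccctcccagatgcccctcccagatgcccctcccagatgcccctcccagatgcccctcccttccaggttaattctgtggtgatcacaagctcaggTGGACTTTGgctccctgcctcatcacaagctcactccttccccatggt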

How the data were processed

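Affymetrix mouse arrays of 22690 probe sets were deposited as signal intensities on a linear scale, made with MAS5 per the submitters' processing notes; its version, scaling and background settings, and detection calls, are not given in the sources used here. The deposited values had a trimmed mean of 2500.23 to 2502.45 on every array, and each was scaled to 2501.2. Groups came from titles. On log2(signal + pseudocount), the pseudocount being 5% of 2501.2, probe sets with a mean of at least 500 over the 16 tissue arrays and not among 64 controls (15180) were fitted with limma 3.58.1 in R 4.3.3, tissue means with protocol as covariate (7 residual degrees of freedom), p-values two-sided and Benjamini-Hochberg adjusted. A gene dim elsewhere passes this filter only if bright in kidney, so counts cover tested members only. With 20380 probe sets of 1 symbol, 691 of several and 1555 unlisted by the platform annotation, 9250 genes were tested by their brightest probe set. The protocol test used the 8 within-tissue differences. The number of arrays limits the precision. Named genes were list members (42 lists), the 10 largest differences each way without overlap, the 10 with the largest smallest difference, and 5 each way against the arrays labelled brain; the 5 each way between protocols were empty, with 0 called. Members and lists were chosen with earlier results of these data known. The fit was tested on simulated data. Alternatives were the pseudocount, filter, quantile normalization, spread, probe set rule, and leaving out arrays or tissues.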

Additional observations from a re-analysis of the deposited data

Results flagged for a closer look

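In 4 arrays of universal RNA labelled by one-cycle, 1 array had a Kap signal of 218.4, apart from the other 3 by a gap of 0.864 of the range, above Dixon's limit for 4 values. In 4 arrays labelled by BIIB from 500 pg, 1 had a Slc34a1 signal of 463.6, with a gap of 0.839 of the range. Chance alone sets about 1 in 20 such groups apart, and 6 were looked at, 3 markers by 2 protocols. Both signals are far below those of the kidney arrays.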

How the results depend on the processing

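Among the alternatives, taking differences among the other 7 tissues into the spread changed most: 306 probe sets were then higher and 17 lower in place of 1614 and 1884, and 83 of the 180 genes named lost their call without a change of sign. A pseudocount of 500 left 18 probe sets lower than each other tissue in place of 37, and one of 25 gave 3 calls between protocols in place of 0. Leaving out each of the 16 arrays in turn gave 1038 to 1635 probe sets higher and 987 to 1932 lower than the mean of the 7. Leaving out kidney arrays gave 192 to 210 higher and 25 to 40 lower than each other tissue. Against the arrays labelled brain, leaving out an array of either tissue gave 1022 to 1518 higher and 840 to 935 lower. Leaving out each tissue kept the counts at 1501 to 1712 higher and 1690 to 2256 lower. The mean of a gene's probe sets gave 996 genes higher and 1176 lower, against 1069 and 1324 when genes alone were fitted. With that mean 5 named genes lost their call, among them Npnt (0.945), Podxl (0.937), Sdha (0.859) and Slc20a1 (-0.97), and Irx1 gained one.

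Without the BIIB kidney array 9 named genes lost their call: Ace (1.15), Agt (1.16), Aqp5 (-1.12), Aqp8 (-1.21), Nr4a1 (-1.27), Pex7 (0.93), Podxl (1.19), Sdha (0.99) and Slc20a1 (-1.04). Without the one-cycle array they were Ace (1.18), Aqp9 (-0.92), Atp6v1a (1.65), Enpep (1.56), Nr4a1 (-1.27), Pex7 (1.35), Podxl (1.26), Slc20a1 (-0.99) and Snap25 (-0.90). The sign turned for 5 genes that were not called: without the BIIB and without the one-cycle array Anpep was at 1.31 and -0.06, Bhmt at -1.23 and 0.54, Pck2 at -0.89 and 0.28, Kcnj10 at -0.047 and 1.52 and Slc4a1 at 0.50 and -0.69. Further turns were Bhmt at 0.079 without the arrays labelled brain and labelled liver, and Slc4a1 at 0.24 with a pseudocount of 25 and 0.010 with quantile normalization. With a pseudocount of 25, Aqp9 and Snap25 lost their call, and with one of 500, Ace, Agt, Aqp8, Nr4a1 and Slc20a1. In refits that left out arrays, named genes with a mean signal below 500 over the arrays kept were not tested and are not counted. Aqp3 was among them without the one-cycle kidney array. The causes were not tested. The fit pairs arrays by protocol, its covariate. No paired analysis was possible by replicate number, because the labels give the tissue arrays none. A lone kidney array is assumed to vary like the other tissues.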

Other observations

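Of the 217 genes higher than each other tissue, 136 were in none of the lists, and the ones named here were chosen after their values were seen. Tmigd1, an adhesion protein of the brush border, stood at 41106 by one-cycle and 29348 by BIIB against 13.3 to 587 (median 204), a difference of 6.77 ± 0.42 (adjusted p = 4.06e-07). Cda, the cytidine deaminase, stood at 27320.3 by one-cycle and 18799.9 by BIIB against 10.5 to 1233 (median 191), a difference of 6.04 ± 0.49 (adjusted p = 4.4e-06). Guca2b, the uroguanylin that acts on salt excretion, stood at 30609.9 by one-cycle and 5186 by BIIB against 26 to 2064 (median 92.5), a difference of 5.59 ± 0.55 (adjusted p = 1.75e-05). For each of these, both kidney arrays lay above every other tissue. Ush1c, a scaffold of microvilli (4.23 ± 0.55), Slc5a11, an inositol and glucose cotransporter (4.45 ± 0.32), and Pdzd3, a PDZ scaffold (5.04 ± 0.42), were also in this group. Galnt11, which starts O-linked glycans and acts on megalin, stood at 34553 by one-cycle and 25677 by BIIB against 686 to 2257 (median 1303), a difference of 4.47 ± 0.26. Mogat1 (5.80 ± 0.41), which makes diacylglycerol, and Eci3, an enoyl-CoA isomerase (6.84 ± 0.25), add lipid enzymes to it.

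By gene symbol, families chosen after the values were seen are given beside the 11.4% of all genes that were higher in kidney and the 14% that were lower, with no test of a family. Of 204 Slc genes tested 71 were higher and 20 lower, with a median difference of 0.38, and 38 were higher than each other tissue; within them, 11 of 14 Slc22 genes were higher and 0 lower. Of 50 Cyp genes 11 were higher and 11 lower, with 34 lower than the arrays labelled brain, where 8.67% of all genes were lower. Of 20 Serpin genes 1 was higher and 9 lower, and of 24 collagen genes 2 and 10. The 49 ribosomal protein genes had 0 higher and 3 lower, and the 47 proteasome genes 0 and 2.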
